A study of Mus musculus with 9 samples.

Results

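The cytosolic ribosomal protein genes encode the proteins of the 40S and 60S subunits that assemble with ribosomal RNA into the ribosome of the cytoplasm. Members were taken as the protein-coding genes of GENCODE M21 whose symbol was Rps or Rpl with a number (and at most a closing a, l or x), Rplp0 to Rplp2 or Rpsa, which gave 80 of the 55450 genes in the count tables. They comprised 46 proteins of the large subunit, 31 of the small subunit and the 3 proteins of the P stalk, the arm of the large subunit that recruits elongation factors. RNA of dissected nigral tissue was compared between CTR, CX3 and DAT, with 3 libraries (A, B and C) in each group. The 9 libraries were made 5 weeks after transduction of mice with a Cre-dependent lentivirus, at an age the study's text gives as 8 weeks in one place and 9 weeks in another. CTR tissue came from CX3CR1-CreERT2 mice given a GFP control vector, which the study's text describes as destabilized GFP, and CX3 tissue from the same line given a synuclein-expressing vector. In both groups Cre acts in CX3CR1+ cells, mainly microglia, after tamoxifen. DAT tissue came from DAT-Cre mice, in which Cre acts in cells that use the dopamine transporter gene, given the synuclein-expressing vector. The methods give tamoxifen for CX3CR1-CreERT2 mice only, so mouse line, vector and tamoxifen all differ between DAT and CTR and cannot be told apart. The number of animals behind each library was not stated, and p-values therefore measure the spread between libraries, which may be technical.

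Ribosomal proteins are made in nearly equal numbers, since each ribosome holds 1 copy of almost every one, and their genes are transcribed at a high rate in all cells. Most of their mRNAs begin with a run of pyrimidines, the 5′ terminal oligopyrimidine (TOP) tract, through which mTOR signalling and the RNA-binding protein Larp1 set their translation and stability. In neurons a share of the mRNA of the family is carried into axons and dendrites. Because whole tissue was sequenced, fewer cells of a type and less RNA per cell cannot be told apart.

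Transcript start sequences were printed to show the TOP tract and members that lack it at the annotated start. RefSeq windows (GRCm38.p6) were matched by symbol for 60 members, while 20 had no entry. Each window below runs from 10 bases before the annotated start through the first 20 transcribed bases, and capitals mark a run of at least 6 C or T that lies within 5 bases of the start. Rpl28 (chr7:4792955-4792984, + strand) is shown as a member called lower in CX3, Rpl15 (chr14:18270967-18270996, - strand) and Rplp2 (chr7:141447641-141447670, + strand) as members that passed no test against CTR, and Rps10 (chr17:27635225-27635254, - strand) as one called lower in DAT. Rpl10 (chrX:74270806-74270835, + strand) and Rps28 (chr17:33824543-33824572, - strand), called lower in both groups, show starts without the run.
Rpl28: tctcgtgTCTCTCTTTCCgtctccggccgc
Rpl15: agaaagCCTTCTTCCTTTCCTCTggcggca
Rplp2: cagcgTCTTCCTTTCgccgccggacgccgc
Rps10: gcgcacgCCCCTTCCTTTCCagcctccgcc
Rpl10: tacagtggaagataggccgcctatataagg
Rps28: cgcgtgcggtctcgcgagagcgaaagtgag

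A run of at least 6 pyrimidines was present at 29 of 60 member starts (48.3%), against 20.1% of the 27025 starts in the table and 2443 of the 12231 starts of the other protein-coding genes tested. Runs of at least 10 were found at 15 of 60 member starts and 4.91% of all starts. In the 300 bases from 250 before to 50 after the start, searched on both strands, CGGAAG (the core bound by ETS factors) was present in 68.3% of member promoters, in 17.1% of all promoters and in 27.4% of those of the other protein-coding genes tested. CACGTG, the E-box bound by Myc, was found in 8.33% of member promoters, 7.09% of all promoters and 9.30% of those of the other protein-coding genes tested. TATAAA was found in 6 of 60 member promoters, 14.1% of all and 7.81% of those of the other genes tested, so members lay between these backgrounds for both motifs. These letters are a description of annotated starts, which can lie some bases from the start used in the tissue.

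**Figure D1:**
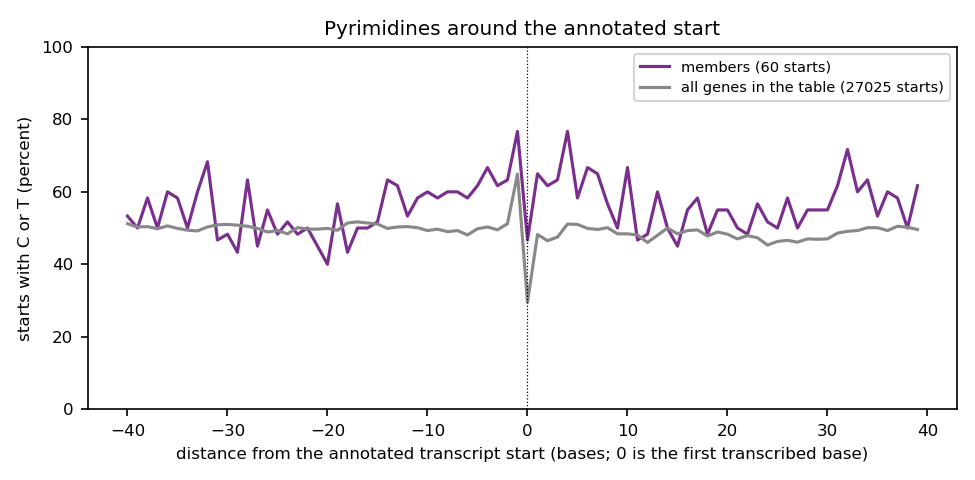
Percentage of transcript starts with C or T at each position from 40 bases before to 39 bases after the annotated start, for 60 member starts (purple) and all 27025 starts of the table (grey). At the base before the start, 76.7% of member starts and 64.9% of all starts had a pyrimidine, and the member line lay above the grey one at every position from 10 bases before to 8 bases after it.

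Levels were expressed as CPM, counts scaled to a common library total with TMM factors, which set libraries to a common level over most genes. Counts on genes ranged from 21592817 to 39475428 per library, and 3 counts, taken as the smallest countable signal, equalled 0.0779 to 0.151 CPM (counting error only). Mapping measures moved with the groups, with reads on no annotated gene at 9.29 to 9.46% of mapped reads in CTR, 7.89 to 8.97% in CX3 and 5.20 to 5.34% in DAT. Marker genes of dopaminergic (DA) neurons were present in all libraries, and their 8 genes summed to 862 to 870 CPM in CTR, 1050 to 1070 in CX3 and 676 to 690 in DAT, with none at 0. The defining genes of the labelled nigral tissue were thus found in each group. Other marker sums also separated the groups. Choroid plexus genes (6) summed to 34.2 to 36.7 CPM in CTR, 1470 to 1580 in CX3 and 872 to 1040 in DAT, and B and plasma cell genes (8, of which Mzb1 was at 0 in 1 library) to 1690 to 1740, 309 to 335 and 76.7 to 90.2. Microglial genes (8) summed to 748 to 758 CPM in CTR, 490 to 501 in CX3 and 474 to 485 in DAT, and oligodendrocyte genes (6) to 20200 to 20300, 21400 to 21800 and 14600 to 15500. Astrocyte genes (6) summed to 4580 to 4620 CPM in CTR, 2660 to 2770 in CX3 and 2740 to 2760 in DAT, but not every gene followed this sum. Slc1a3 had 435 to 441 CPM in CTR, 270 to 294 in CX3 and 410 to 438 in DAT, and Aldh1l1 82.7 to 86.4, 54.0 to 56.2 and 80.2 to 84.1. For S100b the values were 362 to 379, 365 to 397 and 256 to 347. T and NK cell genes (10) summed to 79.2 to 81.4 CPM in CTR, 65.7 to 70.3 in CX3 and 19.3 to 23.5 in DAT. Pituitary genes (6, of which Prl, Cga and Pou1f1 were at 0 in 3, 2 and 1 libraries) summed to 61.4 to 64.0, 5.92 to 6.13 and 18.4 to 23.5. Endothelial genes (6) summed to 161 to 164 CPM in CTR, 220 to 227 in CX3 and 300 to 312 in DAT, and hindbrain granule cell genes (6) to 18.9 to 19.2, 20.8 to 22.0 and 43.0 to 46.4. Neuronal genes (8) summed to 4460 to 4500 CPM in CTR, 4560 to 4690 in CX3 and 6740 to 6840 in DAT. The part of these differences in the results below was not tested.

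As a family, ribosomal protein transcripts took an overlapping share of counts in CTR and CX3 and a smaller one in DAT. The share was 2.09, 2.11 and 2.05% in CTR libraries A, B and C, 2.19, 2.03 and 1.99% in CX3, and 1.29, 1.69 and 1.32% in DAT. All 3 DAT values lay below all values of the other groups, while CX3 spanned the CTR range, and DAT B stood between its own group and the rest. Over the 75 members with a mean of at least 5 CPM, the median level relative to the mean of the controls was 101, 93.6 and 92.9% in CX3 A, B and C and 65.8, 88.3 and 68.2% in DAT A, B and C. In DAT A and DAT C, 75 of 75 members lay below the lowest control library. In DAT B, 58 lay below it and 10 above the highest control library.

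**Figure D2:**
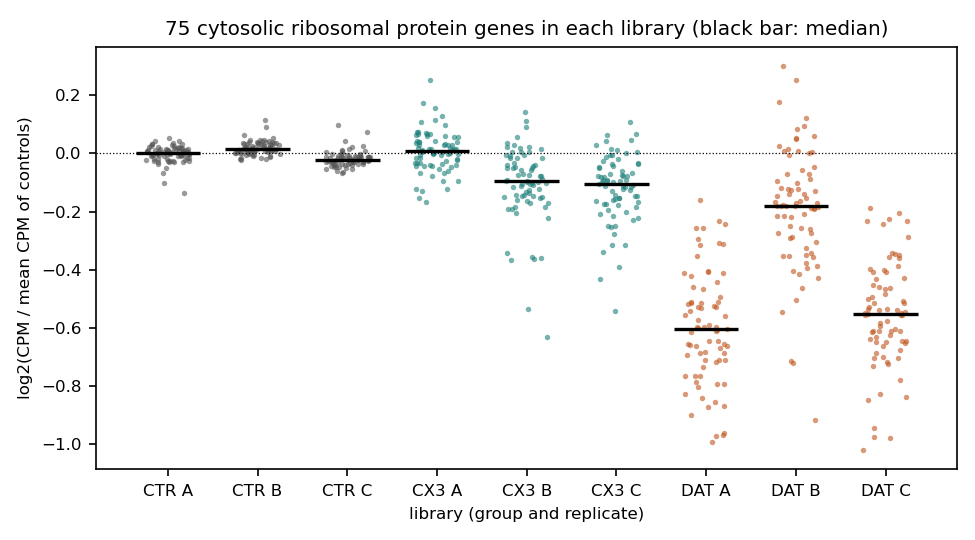
Level of each of 75 members (points) in each of 9 libraries, as log2 of its CPM over the mean CPM of the 3 control libraries, with the median as a black bar. The medians of DAT A and DAT C were -0.60 and -0.55, that of DAT B was -0.18, and those of CX3 lay between -0.11 and 0.01.

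The members moved together from library to library. The first principal component of their log2 CPM held 92.4% of the variance over the 9 libraries. The median coefficient of variation between replicates was 1.98% in CTR, 4.75% in CX3 and 16.3% in DAT. Every one of the 75 members was higher in DAT B than in DAT A and in DAT C, with medians of 0.41 and 0.36 on the log2 scale, and in CX3, 74 of 75 were higher in CX3 A than in CX3 B and in CX3 C, by medians of 0.09 and 0.11. DAT B also had the lowest total count of the series. Its summed CPM of 6 proliferation genes was 66.3, against 51.4 and 53.4 in DAT A and C, and that of the choroid plexus genes was 1040, against 872 and 874. Most of the proliferation sum was Pcna, at 57.4 CPM in DAT B and 45.2 and 44.4 in DAT A and C. Ccnb1, Cdk1 and Birc5 were also highest in DAT B, at 1.31, 1.56 and 1.01 CPM. Mki67 (2.51 CPM) and Top2a (2.51 CPM) in DAT B lay between the values of DAT A and DAT C. CX3 B and C had 13.8 to 13.9% unmapped reads and CX3 A 19.03%, near the 19.4 to 19.6% of CTR. The part of these measures in the split within each group was not tested.

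The members with the highest CPM were Rpl3, Rpl4, Rplp1, Rpsa and Rps3. Rpl3, a core protein of the large subunit near the peptidyl transferase centre, had 696, 677 and 685 CPM in CTR, 718, 678 and 708 in CX3 and 574, 687 and 580 in DAT. CTR and CX3 overlapped, and DAT B lay within the control range. Rpl4, which lines the exit tunnel, had 639, 621 and 611 CPM in CTR, 622, 617 and 593 in CX3 and 488, 550 and 487 in DAT, and all DAT values lay below the controls. Rplp1, of the P stalk, had 596, 605 and 591 CPM in CTR, 573, 526 and 510 in CX3 and 382, 531 and 381 in DAT, and DAT B reached the CX3 range. Rpsa, also known as the laminin receptor, had 539 ± 10.8 CPM in CTR, 521 ± 18.5 in CX3 and 431 ± 54.9 in DAT (SD, n = 3). Rps3, of the mRNA entry site, had 501, 499 and 483 CPM in CTR and 363, 512 and 366 in DAT. For Rps3, DAT B lay above all controls. The log2 fold changes in DAT were -0.16 for Rpl3, -0.30 for Rpl4, -0.47 for Rplp1, -0.32 for Rpsa and -0.26 for Rps3, each called lower by the test given below. The calls of Rpl3 (adjusted p = 0.028) and Rps3 (adjusted p = 0.036) were lost without DAT A (0.071 and 0.11), DAT C (0.056 and 0.097) or CTR A (0.056 and 0.070), and that of Rps3 also without CTR B (0.068) or CX3 B (0.054). Since reads increase with transcript length, levels between members were compared as CPM per kilobase of the principal transcript. On that scale, Rplp1 had the highest mean in CTR (1200 CPM per kb), followed by Rps15 (810) and Rps14 (672), while Rpl3 had 507 and Rpsa 337. Rps15a and Rps20 had low values (40.6 and 52.7 CPM per kb) with principal transcripts of 5130 and 3706 bases, far above the family's median of 774.5. The order of members by mean CPM, not divided by length, was nearly kept between CTR and DAT (Spearman rho = 0.97 over 75 members, which share libraries and gene lengths).

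For some members, reads could be shared with other genes or copies, and the part of this in their levels was not tested. Rpl24, Rps10 and Rpl13a had means below 10 CPM, as did Rpl3l, Rpl39l and Rpl10l, which are paralogs of restricted use. Rpl24 shares 47.0% of its exon bases with Gm28037 on the same strand, and had only 14 to 24 counts per control library. For Rps10, 4 named pseudogenes took 76.2% of the counts of gene and pseudogenes together. Rpl23a, Rpl30 and Rpl35 overlap genes on the opposite strand (Tlcd1, D730044K07Rik, and Arpc5l with Wdr38), and their counts of both strands together held 13.5, 32.1 and 28.1% of the sum of the counts made for each strand alone. Rpl13a shares 35.4% of its exon bases with RNAs on its own strand, among them Gm45713. Values of these 6 members are uncertain. In all, 43 of 80 members shared no exon base with another gene, and 59 had at least 1 named pseudogene.

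In DAT relative to CTR, where mouse line, vector and tamoxifen all differ, the family was lower almost throughout. Of 78 members tested, 70 were called lower and 0 higher (adjusted p below 0.05, edgeR's quasi-likelihood test, Benjamini-Hochberg over 20892 genes), where 27.9% of all tested genes were called lower and 32.0% higher. The 1 further member with an unadjusted p below 0.05 was also lower, and by DESeq2 0 were called higher as well. The median log2 fold change was -0.45 over the members (quartiles -0.57 and -0.34) and 0.00 over all tested genes. All 3 DAT libraries lay below all 3 CTR libraries for 61 of 78 members, against 30.6% of all tested genes. Large-subunit members had a median of -0.44 with 39 of 44 called, small-subunit members -0.48 with 29 of 31, and the P stalk -0.32 with 2 of 3. The 41 tested members that share no exon base with another gene had a median of -0.46, and 36 of them were called lower.

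**Figure D3:**
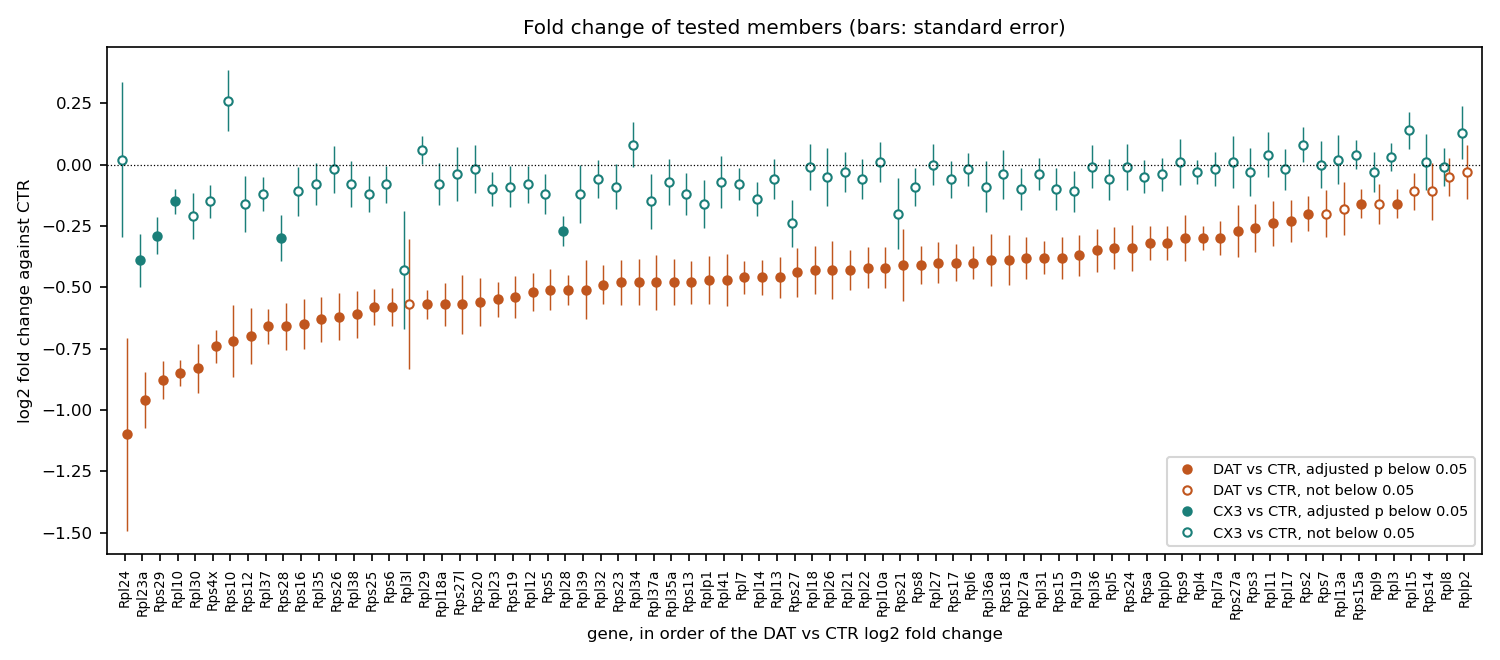
Log2 fold change of 77 of the 78 tested members against CTR, with its standard error, for DAT (orange) and CX3 (green), in order of the DAT value. Filled points had an adjusted p below 0.05 and all lay below 0, with a median over the tested members of -0.45 in DAT and -0.06 in CX3.

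Among members called lower in DAT, the 5 with the most negative fold change were Rpl24, Rpl23a, Rps29, Rpl10 and Rpl30. Rpl10, a late-joining protein of the large subunit encoded on the X chromosome (74270812 to 74273135), had 416, 414 and 411 CPM in CTR, 380, 370 and 371 in CX3 and 222, 251 and 215 in DAT. The 3 groups did not overlap, and DAT B was only slightly above its replicates. Its log2 fold change in DAT was -0.85 (SE 0.0519, adjusted p = 6e-09). Rps29 (chromosome 12, 69157722 to 69159186), a zinc-binding protein of the small subunit, had 242, 247 and 232 CPM in CTR and 123, 146 and 122 in DAT, a log2 fold change of -0.88 (SE 0.0773, adjusted p = 2.5e-07). All DAT values of Rps29 were far below the controls. Rpl30 had 68.4, 71.4 and 67.9 CPM in CTR and 34.8, 48.8 and 34.1 in DAT, a log2 fold change of -0.83 (SE 0.0998, adjusted p = 6e-06). Rpl23a, which sits beside the tunnel exit, had 46.9 ± 2.66 CPM in CTR and 24.2 ± 0.573 in DAT (SD, n = 3), a log2 fold change of -0.96 (SE 0.115, adjusted p = 6e-06), with the limits on its counts given above. Rpl24, of the intersubunit bridge, had 17, 24 and 14 counts in CTR and 14, 5 and 2 in DAT. Its log2 fold change of -1.10 (SE 0.392, adjusted p = 0.026) rested on few reads and was not called without CTR B (adjusted p = 0.087) or without DAT C (0.093). Of the 4 members on the X chromosome, chosen after their values were seen, Rps4x had a log2 fold change of -0.74, Rpl39 -0.51 and Rpl36a -0.39 beside Rpl10, and all 4 were called lower.

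**Figure D4:**
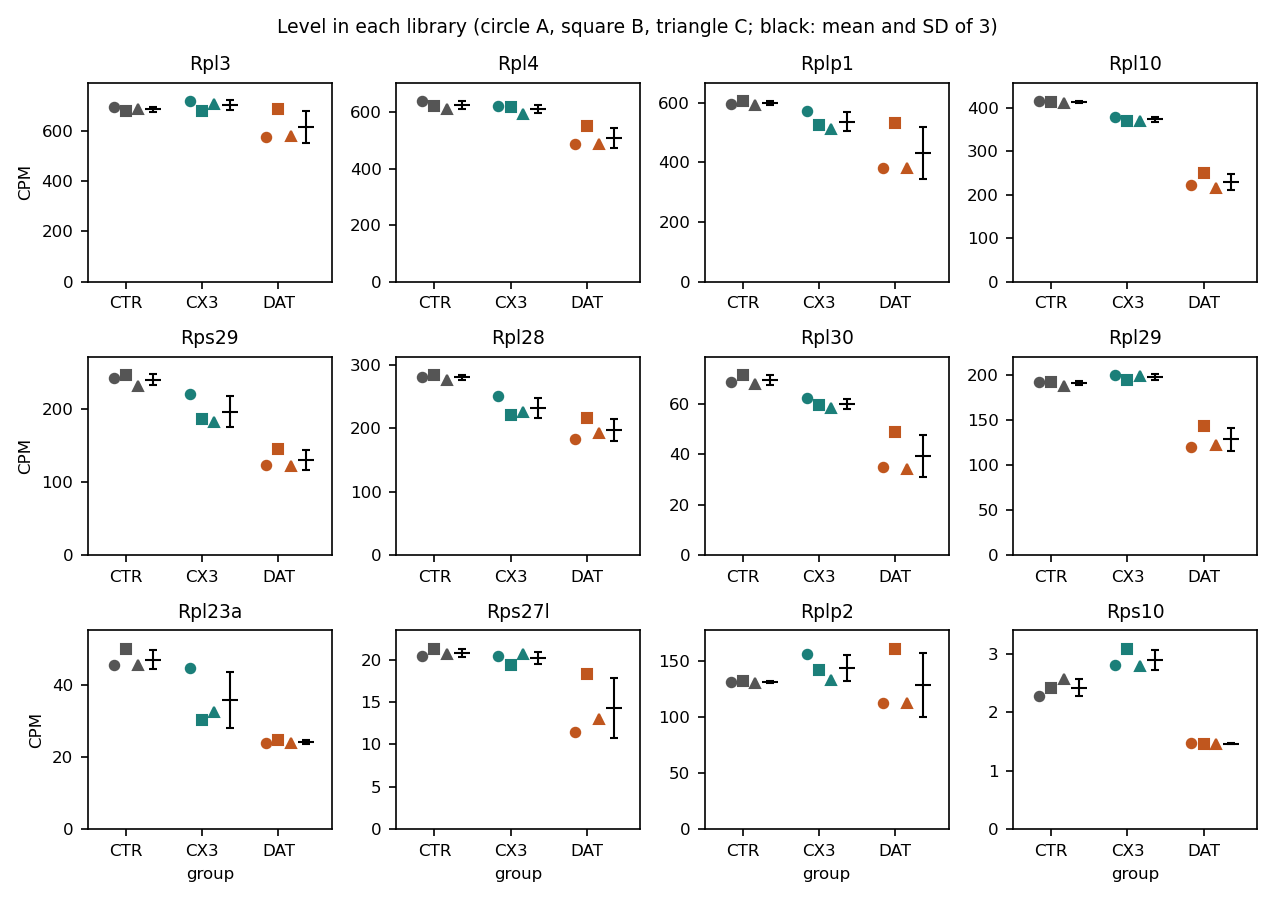
CPM of 12 members in each library (circle A, square B, triangle C) with the mean and SD of 3 libraries in black, on axes that start at 0. Rpl10 separated the 3 groups, at 411 to 416 CPM in CTR, 370 to 380 in CX3 and 215 to 251 in DAT, while for Rplp2 DAT B (161 CPM) lay above all controls.

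The 8 tested members that were not called in DAT included proteins of both subunits. Rplp2, the partner of Rplp1 in the P stalk, had 131, 132 and 130 CPM in CTR and 112, 161 and 112 in DAT. DAT A and DAT C were below the controls and DAT B above them, and the log2 fold change was -0.03 (SE 0.11, adjusted p = 0.80). Rpl8, Rps14, Rpl15, Rpl9 and Rps7 showed the same split, with log2 fold changes of -0.05, -0.11, -0.11, -0.16 and -0.20. The others were Rpl13a (-0.18) and Rpl3l (-0.57, adjusted p = 0.077). When DAT B was left out, 77 of 78 members were called lower, with a median of -0.58, where 30.2% of all tested genes were called lower.

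Gene length moved with this comparison. Members had a median principal transcript of 774.5 bases, against 2826 over the tested protein-coding genes. Other protein-coding genes had a median log2 fold change in DAT of -0.17 for transcripts under 1 kb (1016 genes), -0.01 for 1 to 2 kb, 0.11 for 2 to 4 kb and 0.23 for over 4 kb. Values thus ran from lower to higher with transcript length across the other genes, and the family lay below the shortest class. With an offset fitted in each library to transcript length and GC content, the family's median was -0.24. Of the members, 50 were called lower and 2 (Rpl9 at 0.20 and Rpl17 at 0.18) higher, beside 28.2% and 29.6% of all tested genes. Under that offset the log2 fold change was -0.57 for Rpl10, -0.53 for Rps29, -0.53 for Rpl23a, -0.36 for Rpl30 and -0.47 for Rpsa, all called lower, and -0.13 for Rps3, which was not called. The log2 fold change of members ran with their own length (Spearman rho = 0.28 over 75 members) and their CPM in CTR (rho = 0.33), both given as descriptions. Members with a pyrimidine run at the annotated start had a median of -0.42 with 25 of 28 called lower, and those without it -0.48 with 27 of 30.

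**Figure D5:**
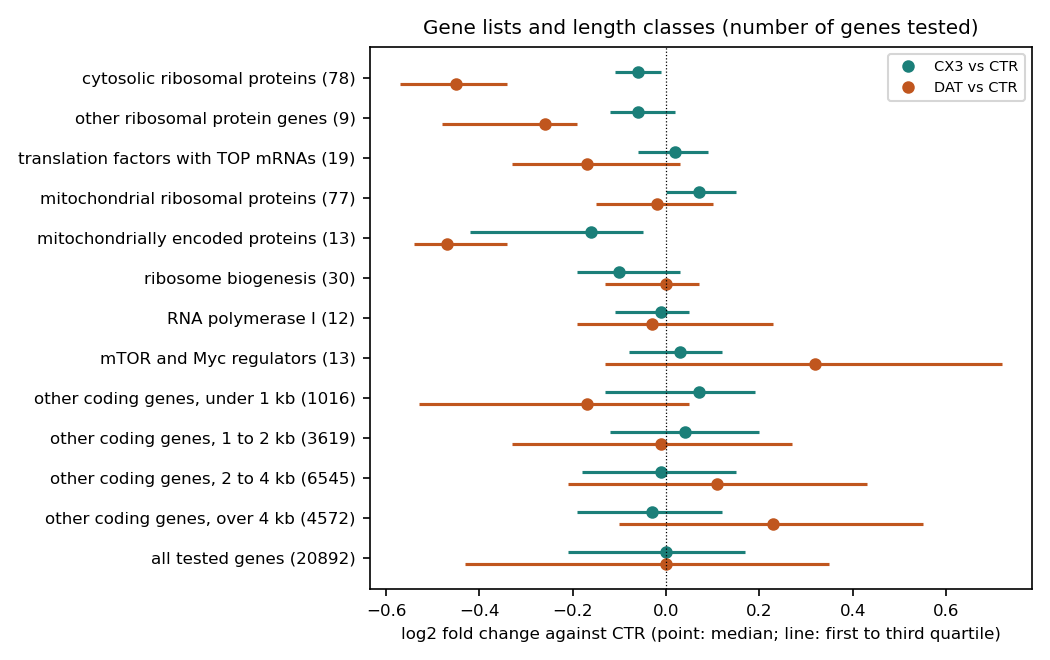
Median log2 fold change against CTR (points) with lower and upper quartiles (lines) of gene lists and of other protein-coding genes by transcript length, for CX3 (green) and DAT (orange), with the number of genes tested in brackets. The cytosolic ribosomal proteins had medians of -0.06 in CX3 and -0.45 in DAT, and the length classes of other genes ran from -0.17 to 0.23 in DAT. The list labelled as translation factors with TOP mRNAs also holds Gas5, Snhg1, Npm1, Nap1l1 and Hnrnpa1.

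In CX3 relative to CTR, which share the mouse line and differ in the vector, changes in the family were small. The groups also differed in the choroid plexus sum (34.2 to 36.7 CPM in CTR, 1470 to 1580 in CX3) and the pituitary sum (61.4 to 64.0 and 5.92 to 6.13). Vector and tissue content thus cannot be told apart here. Of 78 members, 6 were called lower and 0 higher by edgeR, against 16.5% and 14.0% of all tested genes, and 9 were lower and 0 higher at an unadjusted p below 0.05. The median log2 fold change was -0.06, with 63 of 78 members below 0. All CX3 libraries lay below all CTR libraries for 21 members, against 25.4% of all tested genes, and above them for 6, against 23.9%. The share of members called lower (7.69%) was not tested against that of all genes.

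Among them were Rpl23a, Rps28, Rps29, Rpl28 and Rpl10. Rpl28, a protein of the large subunit (chromosome 7, 4792874 to 4795066), had 280, 284 and 276 CPM in CTR and 250, 221 and 225 in CX3, a log2 fold change of -0.27 (SE 0.0602, adjusted p = 0.0036). The groups did not overlap, and Rpl28 was called lower in each of the 9 fits that left out a library. Rps29 had 221, 186 and 183 CPM in CX3, a log2 fold change of -0.29 (SE 0.0758, adjusted p = 0.011). Rps28, of the mRNA exit channel, had 130, 135 and 136 CPM in CTR and 122, 104 and 99.1 in CX3, a log2 fold change of -0.30 (SE 0.0932, adjusted p = 0.025). In both genes CX3 A was nearest to the controls. The call of Rps29 was lost without CX3 B (adjusted p = 0.059) or CX3 C (0.057), and that of Rps28 without any 1 of CTR A, CTR B, CTR C, CX3 B or CX3 C (0.054 to 0.11). Rpl10 had a log2 fold change of -0.15 (SE 0.0512, adjusted p = 0.043), which was not called without any 1 of the CTR or CX3 libraries (0.062 to 0.13). Rpl23a (-0.39, adjusted p = 0.014) was not called in the counts of the reverse strand alone, with a log2 fold change of -0.11, nor without CTR B, CX3 B or CX3 C. The count of 6 depended on single libraries, with 1 member called lower without CX3 B or without CX3 C, 2 without CTR B and 3 without CTR A or CTR C. Of all tested genes, 12.4 to 13.6% were called lower in these fits. Without DAT B, or in a fit of CX3 and CTR alone, 20 were called lower and 3 (Rplp2, Rpl15 and Rps2) higher, where 20.2% and 20.8% of all genes tested in these fits were called lower and 19.4% and 19.9% higher. The share of members called lower was thus below that of all genes with DAT B and above it without. With the offset for length and GC, the median was 0.00, with 5 called lower and 3 higher, beside 19.4% and 17.4% of all tested genes. Under that offset Rpl28 (-0.26) and Rpl23a (-0.25) were still called lower. Rps29 (-0.07, adjusted p = 0.16), Rps28 (-0.08, 0.16) and Rpl10 (-0.08, 0.061) were not.

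Compared directly, CX3 was above DAT for most of the family. Of 78 members, 68 were called higher in CX3 and 0 lower, where 27.6% of all tested genes were called higher and 31.3% lower, and at an unadjusted p below 0.05 69 were higher and 0 lower. By DESeq2, 0 were called lower as well. The median log2 difference was 0.36. All CX3 libraries lay above all DAT libraries for 47 members, against 28.8% of all tested genes. The comparison shares its DAT libraries with DAT against CTR and its CX3 libraries with CX3 against CTR, so its values are not independent of either. The members with the highest positive values were Rpl24 (1.12, not called without CX3 C or DAT C), Rps10 (0.98), Rpl10 (0.70), Rpl29 (0.63) and Rpl30 (0.62). Rpl29, a basic protein of the large subunit, had 200, 194 and 199 CPM in CX3, 192, 192 and 188 in CTR and 120, 143 and 122 in DAT (CX3 minus DAT 0.63, SE 0.0583, adjusted p = 4.5e-07). It was among the few members for which every CX3 library lay above CTR, and its 3 groups did not overlap. Rps10, a protein of the small-subunit head, had 2.80, 3.09 and 2.79 CPM in CX3 and 1.48, 1.46 and 1.45 in DAT, with most reads of the locus and its copies on pseudogenes. With the offset for length and GC, 51 members were called higher in CX3 and 2 lower, with a median of 0.23. Of all tested genes, 28.5% were then called higher and 29.5% lower.

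The paralogs of restricted use were low in nigral tissue. Rps27l, the p53-responsive paralog of Rps27, had 20.4, 21.3 and 20.6 CPM in CTR, 20.4, 19.4 and 20.7 in CX3 and 11.5, 18.3 and 13.0 in DAT. CTR and CX3 overlapped, and all DAT libraries were lower (DAT minus CTR -0.57, SE 0.119, adjusted p = 0.00085). With the offset for length and GC its value turned to 0.02 (adjusted p = 0.86). Rpl3l, used in place of Rpl3 in muscle, had 0.600 to 0.769 CPM in CTR, 0.491 to 0.519 in CX3 and 0.402 to 0.527 in DAT, and was not called in any comparison. Rpl39l and Rpl10l, known from the testis, did not pass the filter on low counts. Rpl39l had 2 to 11 counts per library, and Rpl10l had 3 counts in CTR C and 0 in the other libraries, which allows up to 0.151 CPM. Rps4l, annotated as a transcribed pseudogene and therefore no member, had 19.1 to 21.3 CPM in CTR, 19.5 to 20.7 in CX3 and 27.1, 35.4 and 28.6 in DAT, a log2 fold change of 0.59 in DAT (SE 0.0867, adjusted p = 4.5e-05).

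Ribosomal protein genes outside the naming rule were described in the same fit. Of 9, 3 were called lower in DAT, namely Rps3a1 (-0.57), Fau (-0.48) and Rack1 (-0.31), and 0 higher, with a median of -0.26, a count near the 27.9% of all tested genes called lower. By scaling to library size alone 6 were called lower, beside 38.5% of all tested genes. In CX3, 0 of the 9 were called. With the offset for length and GC, 3 were lower and 2 higher in DAT, with a median of -0.05 and Rps3a1 at -0.25. The genes whose log2 CPM over the 9 libraries ran closest to the mean of the members were Pfdn5, of the prefoldin chaperone (r = 0.993), Rps3a1 (0.993), the splicing factor gene Srsf3 (0.990), the cytochrome gene Cyb5a (0.989) and Rack1, the scaffold protein of the small subunit (0.989). These correlations describe 9 libraries in 3 groups.

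Other genes with TOP tracts or of translation did not all move the same way. Of 19 other genes whose RNAs carry TOP tracts, 10 were called lower and 4 higher in DAT, with a median of -0.17. Most of the 19 are genes of translation, but Gas5, Snhg1, Npm1, Nap1l1 and Hnrnpa1 are among them. The shares of all tested genes were 27.9% lower and 32.0% higher. With the offset for length and GC, 4 of the 19 were lower and 4 higher (median 0.02), against 28.2% and 29.6%. Without DAT B, 12 were lower and 4 higher (median -0.33), against 30.2% and 31.5%. By library size alone, 13 were lower and 2 higher (median -0.32), against 38.5% and 23.4%. Gas5, a host gene of small nucleolar RNAs, was at -0.71, Tpt1, a highly abundant TOP mRNA, at -0.57, Snhg1 at -0.47 (-0.18 and not called with the offset, where Gas5 was at -0.47) and the initiation factor gene Eif3f at 0.46. In CX3, 3 were called higher and 2 lower, against 14.0% and 16.5% of all tested genes. Those called included Eif3f (0.42), the elongation factor gene Eef1d (-0.37) and Pabpc1 (0.28). Eef1a1, the elongation factor gene of most cells, had 3140, 3110 and 3070 CPM in CTR, 2740, 2740 and 2670 in CX3 and 2230, 2590 and 2330 in DAT. Eef1a2, its counterpart of neurons and muscle, had 513, 508 and 493 CPM in CTR, 509, 493 and 515 in CX3 and 1070, 1140 and 1100 in DAT. Eef1a1 thus separated the 3 groups, and Eef1a2 was high in all DAT libraries. The log2 fold change in DAT was -0.38 for Eef1a1 (adjusted p = 5.1e-06) and 1.13 for Eef1a2 (adjusted p = 2.1e-11), and Eef1a2 was at 0.00 in CX3. With the offset these were -0.20, 0.72 and -0.10.

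The mitochondrial ribosomal proteins, encoded in the nucleus for the ribosome of the organelle, were described beside their cytosolic counterparts, with no test between the lists. Of 77 tested, 13 were called lower and 11 higher in DAT (median -0.02), beside 27.9% and 32.0% of all tested genes. With the offset for length and GC, 6 were lower and 23 higher, beside 28.2% and 29.6%. Without DAT B, 35 were lower and 9 higher, beside 30.2% and 31.5%. In CX3, 7 were higher and 5 lower, with a median of 0.07, beside 14.0% and 16.5% of all tested genes. Of 13 proteins encoded by mitochondrial DNA, 12 were called lower in DAT (median -0.47), but with the offset 9 were higher and 0 lower (median 0.24). Genes of ribosome assembly were called in both directions in DAT. Of 30, 7 were higher and 7 lower in DAT, beside 32.0% and 27.9% of all tested genes, with Rrp12 at 0.64, Bysl at 0.59 and Gar1 at 0.48. With the offset 10 were higher and 7 lower, with these genes at 0.21, 0.28 and 0.36, and without DAT B 7 were higher and 12 lower. In CX3 8 were lower and 0 higher, beside 16.5% and 14.0% of all tested genes. Among the 8 were Heatr1 at -0.68, Rrp12 at -0.57, Nolc1 at -0.52 and Nop2 at -0.51. Rrp12, a factor of late subunit assembly, was thus called in opposite directions in the 2 groups, and CX3 minus DAT was -1.21 (adjusted p = 4.6e-10). Of 12 genes of RNA polymerase I, which transcribes ribosomal RNA, 4 were higher and 3 lower in DAT. Of all tested genes, 32.0% and 27.9% were so called. Among the 12, Taf1d was at -0.87 and the large catalytic subunit gene Polr1a at 0.49. With the offset 1 was higher and 4 lower, with Taf1d at -0.36 and Polr1a at 0.09 (adjusted p = 0.090, not called). In CX3 2 were lower (Polr1b at -0.33 and Ubtf at -0.23) and 0 higher.

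Genes that control the family moved in both directions in DAT. Of 13, 7 were called higher and 4 lower, with a median of 0.32, beside 32.0% and 27.9% of all tested genes. With the offset for length and GC, 7 were higher and 2 lower (median 0.12), beside 29.6% and 28.2%. Larp1, which binds TOP mRNAs, had 112, 109 and 109 CPM in CTR, 126, 125 and 124 in CX3 and 213, 209 and 209 in DAT, a log2 fold change of 0.94 in DAT (adjusted p = 1.4e-10) and 0.19 in CX3 (adjusted p = 0.0026). Mtor had 76.2, 77.6 and 79.6 CPM in CTR, 58.8, 62.1 and 64.0 in CX3 and 151, 125 and 153 in DAT, with log2 fold changes of 0.88 in DAT and -0.34 in CX3, both called. Rptor, its partner in mTOR complex 1, was at 0.93 in DAT, and Eif4ebp1, a repressor of cap-dependent translation, at -0.96. With the offset the values in DAT were 0.50 for Larp1, 0.38 for Mtor, 0.37 for Rptor and -0.84 for Eif4ebp1, all still called. Eif4ebp2 went the opposite way to Eif4ebp1, at 0.50 in DAT, and Tsc2 was at 0.72, Tsc1 at 0.32 and Rps6kb2 at -0.72, all called. With the offset these were 0.13, 0.26, -0.07 (not called) and -1.16. DAT B lay nearer to the controls than DAT A and DAT C for Mtor, and within the range of its replicates for Larp1. Of 10 targets of p53, which is stabilized when ribosome assembly fails, 4 were called lower and 3 higher in DAT (median 0.02). Of all tested genes, 27.9% and 32.0% were so called. Among the 10, Trp53inp1 was at -1.22, Eda2r at -1.10, Zmat3 at 0.82 and Sesn2 at 0.77. With the offset 6 of the 10 were lower and 2 higher (median -0.28), beside 28.2% and 29.6%, and Sesn2 was at 0.28. In CX3, 4 of the 10 were lower and 2 higher, beside 16.5% and 14.0% of all tested genes. Those called included Trp53inp1 (-0.62), Eda2r (-0.59) and Cdkn1a (-0.39).

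Scaling by library size alone moved the median of all tested genes to -0.15 in DAT against CTR and to 0.20 in CX3 against DAT. Under it, 4890 genes were called higher and 8045 lower in DAT against CTR, in place of 6686 and 5834, while 76 members were lower and 0 higher. In CX3 against CTR it gave 3958 higher and 2766 lower genes in place of 2923 and 3444, and in CX3 against DAT 8916 and 4444 in place of 5767 and 6544. The family's median was then -0.59 in DAT against CTR, -0.01 in CX3 against CTR and 0.55 in CX3 against DAT, which relative to all genes left it lower in DAT.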

How the data were processed

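The authors deposited raw counts of reads per gene and library, in the layout of STAR's gene counts, without normalization. Per the labels and methods, reads of 76 bases were trimmed with Trimmomatic and aligned to mm10 with STAR, and the methods name featureCounts for counting. Versions are not given in the sources used here. The column that ignores strand was used, since the reverse strand held 49.8 to 49.9% of the strand-specific counts. Gene identifiers and coordinates are those of GENCODE M21 (GRCm38). The members, gene lists and alternatives were chosen with earlier results of these data known.

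Genes passing edgeR's filterByExpr were scaled by TMM and fitted with edgeR 4.0.16 in R 4.3.3, with all 9 libraries, 1 coefficient per group, and the quasi-likelihood test with Benjamini-Hochberg adjustment (called below 0.05). Standard errors are the fold change divided by the square root of F. DESeq2 1.42.0 was an alternative, with others in scaling, filter, strand, samples and an offset from loess fits to transcript length and GC content. Scripts were tested on simulated data. The labels give no batch. Named members were the 5 with most CPM, the 5 with the most extreme fold change in each direction among those called per comparison, the tissue paralogs and members failing the filter. By rule, at most 4 called genes were named per other list, and the 5 genes most correlated with the family mean. Values of 1 member are not reported here by name. Other names were chosen after their values were seen. Same-letter libraries of different groups did not deviate together. Python 3.11.15, numpy 2.4.6, pandas 2.3.3, scipy 1.17.1 and matplotlib 3.10.9 were used.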

Additional observations from a re-analysis of the deposited data

How the results depend on the processing

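In DAT against CTR, 48 to 77 members were called lower and 0 to 2 higher over 23 alternatives. In CX3 against DAT 30 to 77 were called higher and 0 to 2 lower. Of all tested genes, 15.9 to 38.5% were called lower in DAT against CTR and 14.8 to 42.7% higher in CX3 against DAT. Leaving out 1 library in turn gave 61 to 77 members lower in DAT (median -0.58 to -0.38), 59 to 77 higher in CX3 against DAT (0.29 to 0.51), and 1 to 20 lower and 0 to 3 higher in CX3 against CTR (-0.10 to -0.04). Of all tested genes, 12.4 to 20.2% were called lower and 9.42 to 19.4% higher in CX3 against CTR in these fits. Leaving out 1 library gave mean shares of counts of 2.07 to 2.10% in CTR, 2.01 to 2.11% in CX3 and 1.30 to 1.5% in DAT. A fold threshold of 1.2 left 0 members lower in CX3 against CTR, 48 lower in DAT and 30 higher in CX3 against DAT. Of all tested genes, 5.28, 18.9 and 17.8% were so called. The offset for length and GC gave medians of 0.00, -0.24 and 0.23, with 3, 2 and 51 members higher and 5, 50 and 2 lower. Library size alone gave 3 members lower in CX3 against CTR (median -0.01), beside 13.2% of all tested genes, and a median of 0.55 in CX3 against DAT. Reverse-strand counts gave 3 lower in CX3 against CTR, beside 13.9% of all tested genes, and a filter of at least 1 count 2 higher, beside 8.0%. The fit of 2 groups gave 20 lower and 3 higher, beside 20.8% and 19.9%. The share in CTR was 2.17% of protein-coding counts, 1.99% and 2.01% in reverse-strand and forward-strand counts and 2.12% with pseudogenes added. Values for Rps27l in DAT turned to 0.02 with the offset, and Rps10 in CX3 turned from 0.26 to -0.30 (adjusted p = 0.042) with its pseudogenes added. Over the named members, the family and the gene lists, 1490 values in single settings stayed on the same side and 60 counts or medians moved. Calls of named members were lost in 75 combinations of gene, comparison and setting and gained in 20. Fits with a replicate block, whose letters are not known to pair libraries (same-letter correlations of -0.16 to 0.04), gave 4 members lower in CX3 against CTR, 70 lower in DAT against CTR and 69 higher in CX3 against DAT. Of all tested genes, 15.1, 26.9 and 26.6% were so called. The cause of these changes was not tested. Depth limits Rpl24, Rpl3l, Rpl39l and Rpl10l.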

Other observations

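Named pseudogenes of the members took 1.70 to 1.71% of the counts of genes and pseudogenes together in CTR, 1.55% in CX3 A, 1.11 to 1.17% in CX3 B and C, and 1.43 to 1.59% in DAT. CX3 A stood apart from its replicates in this share as it did in the level of the members.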
